A study of Paeonia ostii with 18 samples.

Results

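Heat shock proteins and their co-chaperones were followed through the chilling treatment of tree peony flower buds with 9 probes out of the 14957 non-control probes of a custom Agilent array. The probes were taken by name, from the protein descriptions that the study's gene tables attached to them: 1 heat shock protein of the HSP90 kind, 2 probes for the HSP90 co-chaperone AHA1, 2 probes for the cognate HSC70-1, 1 probe described as HSP70, 1 HSP70-interacting protein and 2 proteins described by heat shock protein binding. Those tables list probes that had been called differentially expressed on these same arrays, so a count of changed probes among the 9 is not independent evidence of a change.

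Potted 4-year-old plants of Paeonia ostii 'Feng Dan Bai', all of 1 cultivar and without any transgene, were kept at 0 to 4 °C, and mixed buds were sampled after 0, 6, 12, 15, 18 and 24 d. Each of the 6 times had 3 replicates, each of 3 plants with 3 buds per plant, and each replicate was hybridized to 1 single-colour array, giving 18 arrays. The 0 d buds were not chilled, the labels place the release of endo-dormancy at 18 d, and buds of 24 d were eco-dormant. No buds kept without chilling to the later times were analysed here, so that time in the cold and the date of sampling cannot be told apart, and the RNA came from whole buds, in which fewer cells of a type and less RNA per cell cannot be told apart.

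HSP90 is an ATP-driven chaperone that finishes the folding of signalling proteins such as kinases and receptors, and AHA1, in yeast and mammals, binds HSP90 and speeds up its ATPase. HSP70 proteins hold exposed stretches of unfolded polypeptides, and HSC70 proteins are the cognate forms that cells make without heat stress. Partner proteins bring clients to HSP70, start its ATPase, or hand clients on from HSP70 to HSP90.

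On the 18 arrays, 82.2 to 96.5% of the probes (median 91.35%) were well above background, with the lowest share on replicate 3 of 0 d, and no spot was saturated. The arrays lay on 3 slides. The first held all arrays of 0 d and 6 d and 2 of 12 d, the second held 1 of 12 d, all of 15 d and 18 d and 1 of 24 d, and the third held 2 of 24 d. A comparison of 0 d or 6 d with 15 d, 18 d or 24 d therefore also compares slides. No slide holds arrays of both 0 d and 24 d, or of both 6 d and 24 d. The comparison of 18 and 24 d with 6, 12 and 15 d also compares slides in part. Of the 7 green tissue probes checked (chlorophyll a/b binding, Rubisco and photosystem proteins), all were well above background on all 18 arrays. Their summed linear signal was 63112 to 67475 at 0 d and 33307 to 38040 at 6 d. It was 30647 to 56192 over the arrays of the next 3 times and 42434 to 58507 at 24 d. The brightest probes weigh most in this sum. The median log2 difference of the 7 from 0 d was -0.91 at 6 d and -0.69 at 24 d, with 1 of the 7 above 0 d at 24 d. For all probes the median was 0.03 at both times. The flowering regulator AGL20 (CUST_653_PI425249770) was 2.65 higher at 24 d than at 0 d on the log2 scale (limma, adjusted p = 0.0134; with slide as a fixed block 1.37, adjusted p = 0.765). The part of a changing makeup of the buds in the values below was not tested.

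The only changes among the 9 probes that passed the adjusted test were between unchilled buds and buds chilled for 24 d. The HSP90 probe fell and a heat shock protein binding probe rose. Neither passed with slide as a fixed block (limma adjusted p = 0.463 and 0.866). The probe CUST_124_PI425249770, described as a putative heat shock protein with the symbol HSP81-2 (a cytosolic HSP90 of Arabidopsis), was 2.57-fold lower at 24 d than at 0 d. The probe CUST_9942_PI425249770, whose description names the binding of heat shock proteins but no protein family, was 1.57-fold higher. The other 7 probes passed the test in no comparison. Signals below are log2 intensities after quantile normalization, differences are in log2 units from a limma fit over all arrays, p-values were adjusted over all probes by the Benjamini-Hochberg method, and a probe was called at an adjusted p under 0.05. Signals of different probes are not compared with each other.

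The HSP90 probe CUST_124 had signals of 14.12, 13.51 and 14.26 on the 3 arrays of 0 d. At 6 d they were 13.95, 13.35 and 13.44, and at 12 d they were 13.97, 12.26 and 13.21. The arrays of 12 d lay far apart, replicate 2 being lower than every array outside 24 d. At 15 d the signals were 13.06, 12.99 and 13.28, at 18 d 12.80, 13.40 and 12.97, and at 24 d 12.08, 12.85 and 12.87. Every array of 24 d was below every array of 0 d and of 6 d. The mean went down at each step, from 13.96 ± 0.40 (SD, n = 3) at 0 d to 12.60 ± 0.45 at 24 d, but the means of 12 d, 15 d and 18 d (13.14, 13.11 and 13.05) differed from one another by less than the spread between replicates.

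For CUST_124 the difference between 24 d and 0 d was -1.36 (standard error 0.36, limma adjusted p = 0.0381). The differences of 12 d, 15 d and 18 d from 0 d, which share the same 0 d arrays, were -0.82, -0.85 and -0.91, with adjusted p-values of 0.204, 0.172 and 0.102. Over the 6 times together the limma adjusted p of CUST_124 was 0.152. With slide as a fixed block the difference between 24 d and 0 d was -1.97 with a standard error of 0.75 (adjusted p = 0.463), and with slide as a random block it was -1.38 with a standard error of 0.38 (adjusted p = 0.0562). Within slide 1, the difference from 0 d was -0.38 for the 3 arrays of 6 d and -0.85 for the 2 arrays of 12 d. Within slide 2, the only array of 24 d (replicate 1, 12.08) was below all 6 arrays of 15 d and 18 d (12.80 to 13.40). The other arrays of 24 d, on slide 3, had 12.85 and 12.87, within that range. Without replicate 3 of 0 d the difference was -1.21 (adjusted p = 0.115), and without replicate 1 of 24 d it was -1.10 (adjusted p = 0.104).

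**Figure D1:**
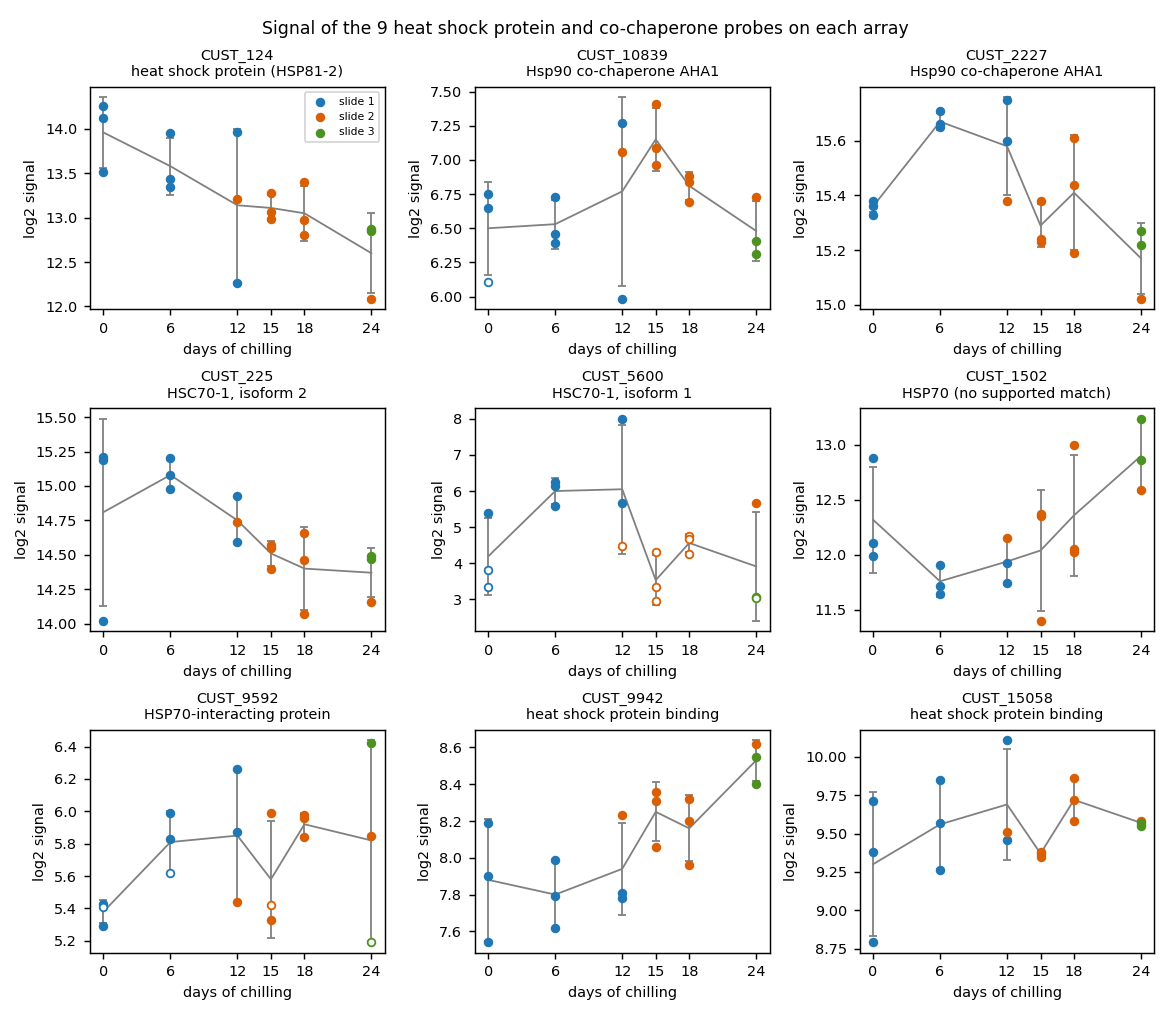
Log2 signal (y axis) against days of chilling (x axis) for the 9 probes, 1 point per array, coloured by slide, open where the probe was not well above background on that array; the grey line joins the means of 3 arrays and its bars are the SD. The signal of CUST_124 goes from a mean of 13.96 at 0 d to 12.60 at 24 d, that of CUST_9942 from 7.88 to 8.53, and CUST_5600 is open on 11 of 18 arrays.

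The 2 probes for AHA1, the activator of HSP90, match the same Ricinus communis protein and did not run together over the 18 arrays (Pearson's r = -0.24, arrays of 1 time and slide not being independent). CUST_2227_PI425249770 had 15.36, 15.33 and 15.38 at 0 d and 15.65, 15.71 and 15.66 at 6 d. At 12 d it had 15.75, 15.60 and 15.38, at 15 d 15.23, 15.38 and 15.24, at 18 d 15.61, 15.44 and 15.19, and at 24 d 15.02, 15.27 and 15.22. All arrays of 6 d lay above all arrays of 0 d, on the same slide, and all arrays of 24 d lay below both. The sizes were small: 6 d minus 0 d was 0.32 (standard error 0.13, limma adjusted p = 0.271), and 24 d minus 6 d was -0.50 (standard error 0.13, adjusted p = 0.095). Tukey's HSD test on this probe alone, the methods' test without adjustment over probes, passed its threshold for 24 d against 6 d.

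CUST_10839_PI425249770, the other AHA1 probe, was well above background on 17 of 18 arrays. It had 6.65, 6.75 and 6.11 at 0 d, 7.09, 7.41 and 6.96 at 15 d, and 6.73, 6.31 and 6.41 at 24 d. Every array of 15 d was above every array of 0 d, 18 d and 24 d. The difference of 15 d from 0 d was 0.65 (standard error 0.28, limma adjusted p = 0.173), and that of 18 d from 15 d, within slide 2, was -0.35 (adjusted p = 0.828). At 12 d its arrays spread from 5.98 to 7.27, the lowest being replicate 1.

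HSC70-1 was represented by CUST_225_PI425249770, which matches isoform 2 of the grape (Vitis vinifera) protein, and by CUST_5600_PI425249770, which matches isoform 1. CUST_225 also carries the symbol ERD2, and whether it is a form made without stress was not tested. CUST_225 had 15.19, 15.21 and 14.02 at 0 d, so that replicate 3, the array with the lowest share of probes above background, stood apart from the others. Its signals were 14.98, 15.08 and 15.20 at 6 d and 14.59, 14.93 and 14.74 at 12 d. They were 14.55, 14.40 and 14.57 at 15 d, 14.07, 14.46 and 14.66 at 18 d, and 14.16, 14.47 and 14.49 at 24 d. All arrays of 15 d, 18 d and 24 d were thus below all arrays of 6 d and below 2 of the 3 arrays of 0 d.

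With all arrays, CUST_225 was not called: 24 d minus 0 d was -0.44 (standard error 0.26, limma adjusted p = 0.314) and 24 d minus 6 d was -0.71 (standard error 0.26, adjusted p = 0.197). Without replicate 3 of 0 d it was called at 3 times, with differences from 0 d of -0.69 at 15 d (adjusted p = 0.046), -0.80 at 18 d (adjusted p = 0.0143) and -0.83 at 24 d (adjusted p = 0.0269), and over the 6 times (adjusted p = 0.039). No other single array, when left out, gave a call for this probe. With slide as a fixed block and all arrays, 24 d minus 0 d was -0.63 (adjusted p = 0.798).

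CUST_5600 was close to background. It was well above background on 7 of 18 arrays: all 3 of 6 d, 2 of 12 d, 1 of 0 d and 1 of 24 d, and none of 15 d or 18 d. Its signals were 5.39, 3.35 and 3.82 at 0 d, 6.15, 6.26 and 5.59 at 6 d, and 5.66, 8.01 and 4.49 at 12 d. At 15 d they were 2.96, 3.34 and 4.30, at 18 d 4.26, 4.74 and 4.68, and at 24 d 5.66, 3.06 and 3.03. All 6 d arrays were above all arrays of 0 d, 15 d and 18 d, and 1 array of 24 d reached into their range. Signals of 15 d and 18 d below the lowest signal that counted as well above background on their array were raised to it. The mean at 6 d was then 3.79-fold higher than at 15 d and 2.66-fold higher than at 18 d. These folds also compare slides and were not tested. They are not strict bounds, as signals above that mark can still be undetected, such as 5.42 for CUST_9592 on replicate 2 of 15 d. The difference of 6 d from 0 d, within slide 1, was 1.81 with a standard error of 0.84 (limma adjusted p = 0.315), and that of 24 d from 6 d was -2.09 (adjusted p = 0.239).

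CUST_1502_PI425249770 carries an HSP70 description in the gene tables, but its sequence match is no better than chance, whereas the matches of the other 8 probes were well supported, so it is called here by its probe name only. Its signals were 12.88, 12.11 and 11.99 at 0 d, 11.72, 11.64 and 11.91 at 6 d, and 12.59, 13.24 and 12.86 at 24 d. The 6 d arrays were below all those of 0 d and 24 d. The difference of 24 d from 6 d was 1.14 (standard error 0.32, limma adjusted p = 0.116), and that of the times from 18 d on (18 and 24 d) from the earlier chilled ones (6, 12 and 15 d) was 0.72 (standard error 0.21, adjusted p = 0.0958).

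Among the partner proteins, CUST_9942 had 8.19, 7.90 and 7.54 at 0 d and 7.62, 7.79 and 7.99 at 6 d. At 12 d it had 7.78, 7.81 and 8.23, at 15 d 8.31, 8.06 and 8.36, at 18 d 8.20, 7.96 and 8.32, and at 24 d 8.62, 8.40 and 8.55. The 24 d arrays were above every array of the other 5 times, and the remaining times overlapped with 0 d. The difference of 24 d from 0 d was 0.65 (standard error 0.18, limma adjusted p = 0.0468), and that of 24 d from 6 d was 0.73 (standard error 0.18, adjusted p = 0.0875). Over the 6 times its adjusted p was 0.0949.

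The rise of CUST_9942 was near the threshold. With slide as a fixed block it was 0.31 with a standard error of 0.36 (limma adjusted p = 0.866), and with slide as a random block it was 0.63 with a standard error of 0.19 (adjusted p = 0.0738). Within slide 2 the 24 d array (8.62) was above all 6 arrays of 15 d and 18 d (7.96 to 8.36). Without replicate 3 of 0 d, the lowest of its 18 arrays, the difference was 0.48 (adjusted p = 0.155).

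CUST_15058_PI425249770, the other heat shock protein binding probe, kept a mean between 9.30 at 0 d and 9.72 at 18 d. Its 18 d arrays (9.58, 9.72 and 9.86) were above its 15 d arrays (9.35, 9.38 and 9.37), on the same slide, with a difference of 0.36 (standard error 0.22, limma adjusted p = 0.744). CUST_9592_PI425249770, the HSP70-interacting protein (in mammals, the protein of this name binds the ATPase domain of HSP70), was well above background on 14 of 18 arrays, 2 of 3 at 0 d and 2 of 3 at 6 d. Its means ran from 5.38 at 0 d to 5.92 at 18 d, and its 6 d arrays (5.62 to 5.99) were above its 0 d arrays (5.29 to 5.43), by 0.43 (standard error 0.28, adjusted p = 0.466).

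**Figure D2:**
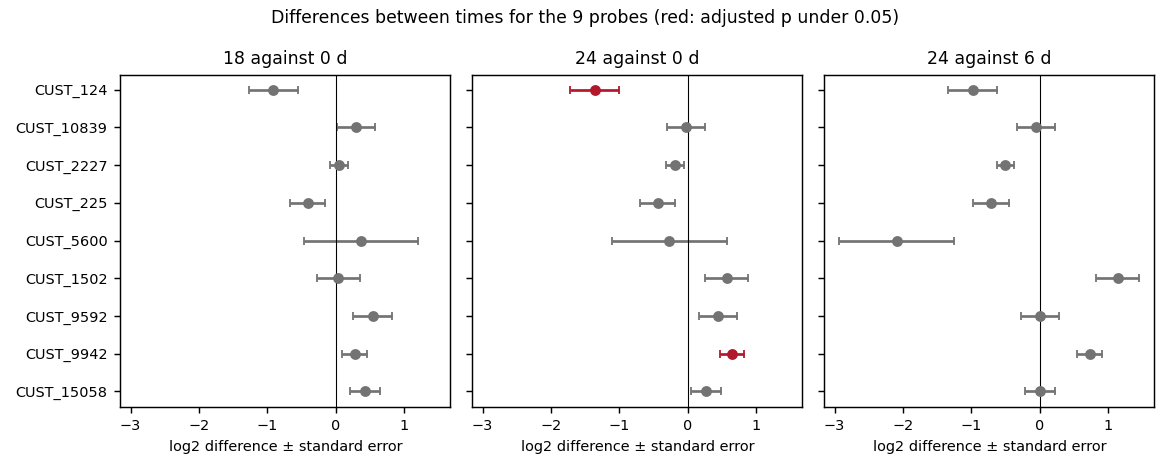
Log2 difference of each of the 9 probes (x axis, point with its standard error from the limma fit) for 18 d against 0 d, 24 d against 0 d and 24 d against 6 d, with adjusted p-values under 0.05 in red. CUST_124 (-1.36) and CUST_9942 (0.65) are red in the middle panel, and no probe is red in the other 2 panels.

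The 9 probes did not move as a block. At 24 d against 0 d, 2 of 9 were called, 1 higher and 1 lower. Among all probes 4.51% were called higher and 3.23% lower in that comparison, and the median difference was -0.02 for the 9 and 0.03 for all probes. Tukey's HSD test passed the same 2 probes, beside 9.63% of all probes. At 6 d, 12 d, 15 d and 18 d against 0 d limma called none of the 9. In the same order, 0.0802%, 3.13%, 6.86% and 15.8% of all probes were called. At an unadjusted p under 0.05 limma had 2, 2, 2 and 1 of the 9 at these times, beside 15.6%, 22.1%, 23.6% and 31.6% of all probes. Tukey's HSD test had none of the 9, beside 3.74%, 7.19%, 9.05% and 13.6%. At 18 d, where the most probes changed, the median difference of the 9 was 0.28, beside 0.05 for all probes. The only 1 of the 9 with a limma unadjusted p under 0.05 there was CUST_124, which was lower.

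At the step of endo-dormancy release, 18 d against 15 d, limma called none of the 9 and 0.0201% of all probes, and none of the 9 had an unadjusted p under 0.05 (8.18% of all probes) or passed Tukey's HSD test (1.74%). For 24 d against 6 d limma called none of the 9 and 0.254% of all probes, while 6 of the 9 had an unadjusted p under 0.05, beside 15.9% of all probes. Tukey's HSD test passed CUST_2227 and CUST_9942 there, beside 4.61% of all probes. For 18 and 24 d against 6, 12 and 15 d limma called none of the 9 and 1.73% of all probes, with 4 of the 9 at an unadjusted p under 0.05, beside 17.0%. Over the 6 times limma called none of the 9 and 5.72% of all probes. There 5 of the 9 had an unadjusted p under 0.05, beside 27.1% of all probes. The methods' test over the times on single probes passed CUST_124, CUST_2227 and CUST_9942, beside 26.8%. The rest of the 9 did not pass it here, although the study's gene tables list them. The reason for this difference from the study was not tested. The 9 came from tables of probes called on these arrays, so shares above those of all probes are not read as a result.

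Counted by arrays that did not overlap, 4 of the 9 probes stood apart between 6 d and 0 d (CUST_2227, CUST_5600 and CUST_9592 higher, CUST_1502 lower), beside 22.3% of all probes. Between 24 d and 0 d 3 of the 9 stood apart (CUST_9942 higher, CUST_124 and CUST_2227 lower), beside 29.6%. Between 24 d and 6 d, which share no slide, 5 of the 9 stood apart, beside 25.3%. CUST_9942 and CUST_1502 were higher and CUST_124, CUST_2227 and CUST_225 lower. Between 18 d and 15 d, both on slide 2, 2 of the 9 stood apart (CUST_15058 higher, CUST_10839 lower), beside 21.0%.

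The calls at 24 d lay close to the threshold and moved with the settings. Over 29 alternative settings the fall of CUST_124 stayed called in 16, with differences from -1.97 to -1.08, and the rise of CUST_9942 stayed called in 8, with differences from 0.31 to 0.87. The direction of both was the same in every one of these settings. Leaving out 1 array could hardly turn it, as every 24 d array already lay on the same side of every 0 d array. Of the 18 settings that left out 1 array, CUST_124 stayed called in 10 and CUST_9942 in 5.

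**Figure D3:**
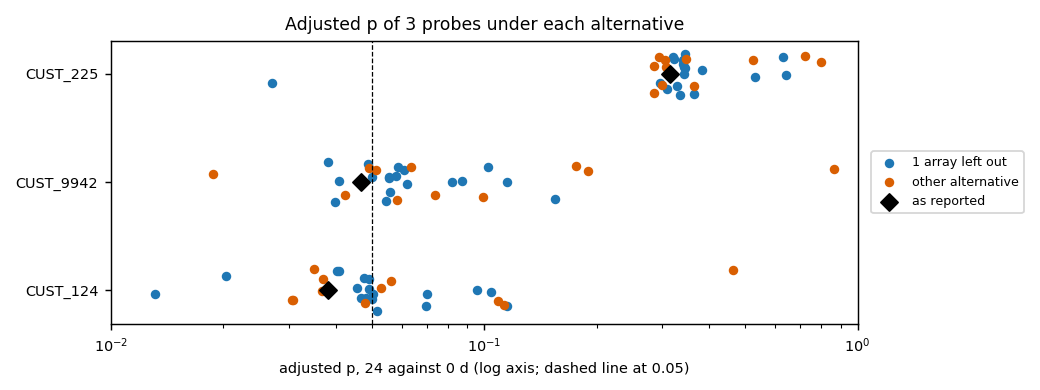
Adjusted p for 24 d against 0 d (x axis, log scale, dashed line at 0.05) of CUST_124, CUST_9942 and CUST_225, with the value as reported (diamond), 18 settings that leave out 1 array (blue) and 11 other alternatives (orange). CUST_124 and CUST_9942 have points on both sides of the line around 0.0381 and 0.0468, and CUST_225 has 1 point left of it, at 0.0269, without replicate 3 of 0 d.

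Of 13 other protein folding probes in the gene tables, taken from the same tables and thus not independent of these arrays either, 2 were lower and none higher at 24 d than at 0 d by limma, beside 3.23% and 4.51% of all probes. One was a further HSP90 probe, CUST_123_PI425249770 (HSP81-3). It had 15.74, 15.68 and 15.63 at 0 d, 15.35, 14.83 and 15.03 at 15 d, 15.16, 15.07 and 14.99 at 18 d, and 15.10, 15.29 and 14.92 at 24 d, every one of these later arrays being below every 0 d array. Its differences from 0 d were -0.62, -0.61 and -0.59 at 15 d, 18 d and 24 d (standard error 0.15, limma adjusted p = 0.0311, 0.0183 and 0.0371). Related HSP90 genes can be close in sequence, and how far CUST_123 and CUST_124 bind each other's transcripts was not tested.

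The other was CUST_2087_PI425249770 (HSP101, the plant disaggregase that pulls apart protein aggregates). It had 8.84, 9.02 and 9.18 at 0 d and 8.43, 8.49 and 8.41 at 24 d, without overlap. Its differences from 0 d were -0.56 at 18 d (standard error 0.14, limma adjusted p = 0.017) and -0.57 at 24 d (adjusted p = 0.0271), and it was also lower in 18 and 24 d than in 6, 12 and 15 d (-0.40, adjusted p = 0.0427). Of the 13, 3 were lower and 1 was higher at 18 d against 0 d, beside 7% and 8.78% of all probes. The third lower one was a DnaJ-like probe (CUST_11572_PI425249770), whose J-domain relatives start the ATPase of HSP70, with -1.61 (adjusted p = 0.0315). The higher one was a protein disulfide isomerase (CUST_14592_PI425249770), which forms and exchanges disulfide bonds in the endoplasmic reticulum, with 0.96 (adjusted p = 0.00312).

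The protein disulfide isomerase was also higher at 12 d (0.75, limma adjusted p = 0.0283) and at 15 d (0.61, adjusted p = 0.0361), and the protein phosphatase PP5.2 (CUST_2939_PI425249770), of a family that in mammals acts on HSP90 complexes, was lower at 15 d (-0.63, adjusted p = 0.0192). Counted over the 13, limma called none at 6 d, 1 higher at 12 d (1.61% of all probes were higher), and 1 higher and 2 lower at 15 d (3.74% and 3.12% of all probes). It called none for 18 d against 15 d or 24 d against 6 d. At 6 d 1 of the 13 had an unadjusted p under 0.05 (15.6% of all probes), for 18 d against 15 d 3 had one (8.18%) and for 24 d against 6 d 7 had one (15.9%). Over the 6 times 2 of the 13, HSP101 and the protein disulfide isomerase, were called, beside 5.72% of all probes. With slide as a fixed block the differences from 0 d at 18 d were -0.54 for HSP81-3, -0.46 for HSP101 and -2.97 for the DnaJ-like probe. The directions were the same as without the block, and the calls were lost (adjusted p = 0.404, 0.428 and 0.0998). HSP81-3 also lost its calls at 15 d (-0.55, adjusted p = 0.571) and 24 d (-0.52, adjusted p = 0.707). HSP101 lost those at 24 d (-0.49, adjusted p = 0.695) and for 18 and 24 d against 6, 12 and 15 d (-0.35, adjusted p = 0.682). Over the 6 times HSP101 and the protein disulfide isomerase were not called with the block (adjusted p = 0.365 and 0.185). For PP5.2 at 15 d the block gave -0.43 (adjusted p = 0.613). For the protein disulfide isomerase the block gave 0.80 at 12 d, which stayed called (adjusted p = 0.0424). It gave 0.77 at 15 d and 1.11 at 18 d, which did not (adjusted p = 0.449 and 0.118). Leaving out single arrays ended each call of these 5 probes at least once (highest adjusted p 0.0568 to 0.139), except that of the protein disulfide isomerase at 18 d (highest 0.0165). The 2 HSP70 probes, HSP70T-2, chaperonin-60, the TCP1 alpha subunit of the cytosolic chaperonin, the chaperone binding protein and the 2 peptidyl-prolyl isomerases were called in no comparison.

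**Figure D4:**
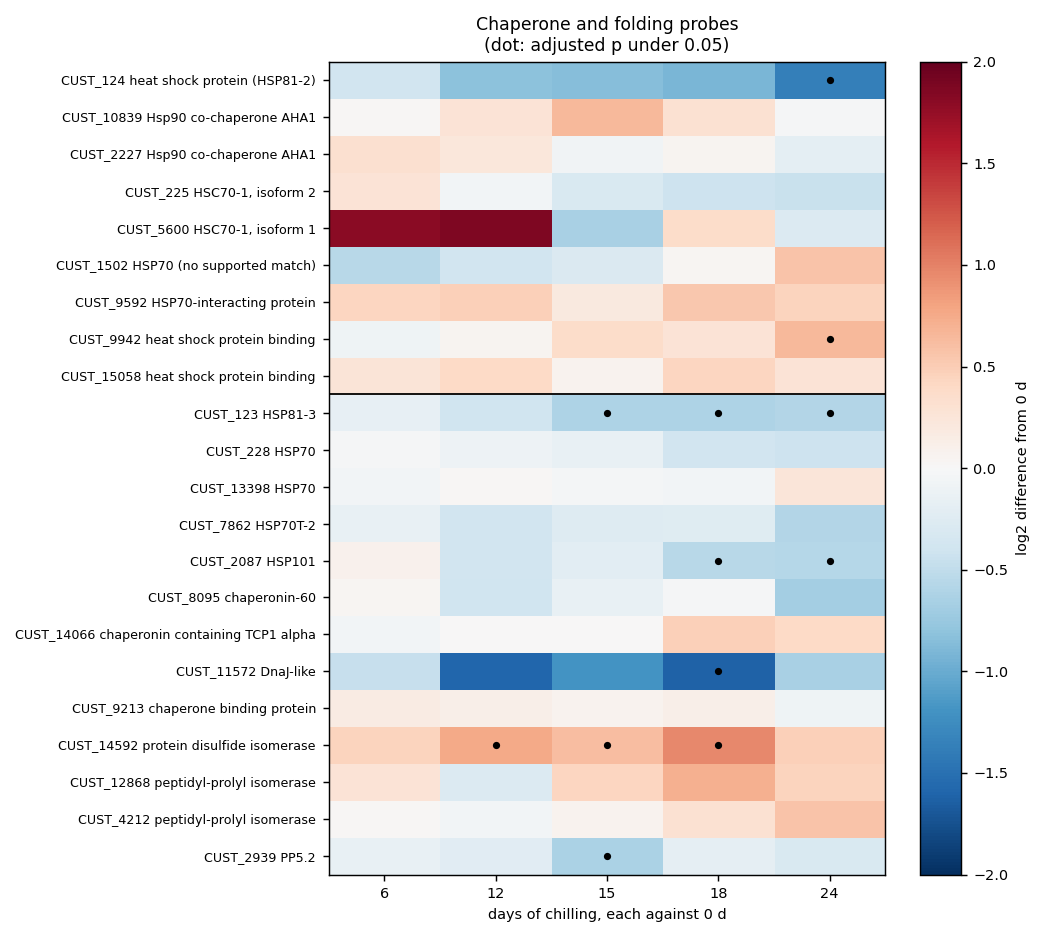
Log2 difference from 0 d (colour, from -2 in blue to 2 in red) at the 5 later times (columns) for the 9 heat shock protein and co-chaperone probes (above the line) and 13 other folding probes (below it), with a dot where the limma adjusted p was under 0.05. The HSP90 probes CUST_124 and CUST_123 are blue at every time, dotted at 24 d for CUST_124 and at 15 d, 18 d and 24 d for CUST_123.

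The probes most like 3 of the members over the 18 arrays were looked up by Pearson's r, as a description with no test. The candidates were 747 probes of the gene tables with a named and supported protein. Those tables list probes called on these same arrays, so the candidates do not stand for all probes of the array. For CUST_124 they were a valine-tRNA ligase (TWN2, CUST_2791_PI425249770, r = 0.81), a poly-A binding protein (CUST_7687_PI425249770, r = 0.79) and a ubiquitin-protein ligase (CUST_12174_PI425249770, r = 0.79). For CUST_225 they were a DNA binding protein (CUST_14633_PI425249770, r = 0.79), a heterogeneous nuclear ribonucleoprotein A1 (CUST_3989_PI425249770, r = 0.75) and a lipid transfer family protein (CUST_459_PI425249770, r = 0.71). For the dim CUST_5600 they were a transaldolase (CUST_10575_PI425249770, r = 0.83), a GPI ethanolamine phosphate transferase (CUST_11853_PI425249770, r = 0.82) and an alpha-1,4-glucan-protein synthase (CUST_14927_PI425249770, r = 0.72). Arrays of 1 time and 1 slide share their sample source and hybridization, which these correlations include.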

How the data were processed

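Single-colour Agilent arrays of tree peony bud RNA were used. Per the file headers, the deposited scanner files hold for each spot the processed signal, an intensity that the authors' Feature Extraction software had already corrected for background. The authors' deposited value table holds log2 values of 14949 probes normalized between arrays; its scale was found by setting it against the scanner values, with which it correlated at 0.999851 or more per array after quantile normalization, and all its columns had a median of 10.83. It served as an alternative.

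Of 15715 spots 536 were controls. Spots flagged as outliers were left out, spots of a probe were averaged, log2 intensities were quantile-normalized, and limma 3.58.1 in R 4.3.3 (lmFit, eBayes) was fitted to all 18 arrays with 1 mean per time and Benjamini-Hochberg adjustment over all probes at 0.05. Comparisons with 0 d share the 0 d arrays. Replicates were separate sets of plants. The fit was tested on simulated data. Depth is not defined for arrays: 3 arrays per time limit the precision. Where a probe was not well above background on any array of a time, its signals there were raised to a mark before taking a fold. The mark was the lowest signal well above background on each array, and the fold is not a strict bound. Where only some arrays measured a probe, their number is given beside the fitted difference. Groups came from the labels.

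Alternatives were the 75th percentile, no normalization, the deposited log2 table, normexp background (offset 50), flagged spots kept, dim probes left out, slide as a fixed or random block (duplicateCorrelation, statmod 1.5.0), a replicate block, a fit to the compared arrays alone, eBayes with a trended robust prior, each array left out, and the methods' ANOVA and Tukey's HSD on single probes without adjustment. All 9 members were named; other folding, green tissue and flowering probes came from lists, with values for those called, and like probes by the highest r. Members and lists were chosen with earlier results of these data known. The gene tables read for descriptions were held only in part, probe sequences were not used here, and descriptions count as supported at an E-value below 1e-05.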

Additional observations from a re-analysis of the deposited data

How the results depend on the processing

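The count of probes called at 24 d against 0 d, 2 of 9, was 1 with arrays scaled to the 75th percentile, with flagged spots kept and with a trended and robust prior, each of which lost CUST_9942 (adjusted p = 0.19, 0.0514 and 0.0637). It was 0 without normalization between arrays, with only the arrays compared, and with slide as a fixed or a random block. With 1 array left out it ranged from 0 to 2. CUST_124 was lost without replicates 1 or 3 of 0 d, replicate 3 of 6 d, replicate 1 of 15 d, replicate 3 of 18 d, or any of 24 d. CUST_9942 was lost without replicates 2 or 3 of 0 d or of 6 d, or any of 15 d, 18 d or 24 d. With the replicate block the count was 0 (adjusted p = 0.0528 for CUST_124 and 0.0585 for CUST_9942). No pairing of samples by number was seen. Deviations of equally numbered arrays correlated at -0.01 on average (-0.24 to 0.28 over 45 pairs), and 7 of 18 arrays lay nearest to one of their own number. With 3 arrays per time these values cannot settle whether the same plants were sampled at several times, which the study does not state. Over the 6 times the count went from 0 to 1 with normexp background (CUST_9942) and to 3 with the methods' ANOVA, and ranged from 0 to 1 with 1 array left out. For 15 d and for 18 d against 0 d it also ranged from 0 to 1, through CUST_225 without replicate 3 of 0 d and, at 18 d, through CUST_124 without replicate 2 of 12 d (adjusted p = 0.0399). For 24 d against 6 d Tukey's HSD test gave 2. The cause of these shifts was not tested, except that fewer arrays enter where some are left out. Of 2340 values of single probes recomputed, 2230 kept their call and any direction, 34 lost a call and 6 gained one. Those of the test over the 6 times have no direction and were judged by their call only. Another 70 that were not called changed sign. The largest was CUST_5600 at 24 d against 0 d, from -0.27 to 3.81 with slide as a fixed block. No called value changed sign. The test over 6 times was not run with only the arrays compared, nor the methods' test for 18 d and 24 d against 6, 12 and 15 d. Signal over background limited CUST_5600, CUST_9592 and CUST_10839.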
